A study of Arabidopsis thaliana with 2 samples.

Results

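Coumarins are phenolic compounds that plants make from phenylalanine through the phenylpropanoid pathway. In Arabidopsis thaliana the main coumarin is scopoletin, stored as its glucoside scopolin. Hydroxylation of feruloyl-CoA at the ortho position of its ring, followed by closure of the lactone, gives scopoletin, and a further hydroxylation gives fraxetin. Scopoletin has antimicrobial activity, and catechol coumarins such as fraxetin mobilise iron outside the root under iron deficiency. The hydroxylases of both steps are 2-oxoglutarate-dependent dioxygenases, soluble enzymes that use iron, oxygen and 2-oxoglutarate.

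The scopoletin synthesis hydroxylases were taken as 3 genes, chosen by locus. They are F6'H1 (AT3G13610), the feruloyl-CoA 6'-hydroxylase, its paralog F6'H2 (AT1G55290), and S8H (AT3G12900), the scopoletin 8-hydroxylase. Of these 3, F6'H1 and F6'H2 had a feature of their own, so 2 of the 9236 genes with a named feature are described. No feature was named for S8H in the annotation used here, and its level was not analysed here. F6'H1 was known to have an extreme ratio when the 3 genes were chosen, so its ratio is a description and carries no test.

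The samples compared the wax-deficient mutant cer6-2 with its wild type, the accession Ler-0. RNA came from leaves and stems of 1 pool of 20 untreated plants of each genotype, aged 15 days by the sample labels (2 weeks in the design text), at 22 °C, 80% relative humidity, and 16 h of light with 8 h of dark. The mutated gene, CER6, codes for an enzyme of fatty acid elongation that makes the precursors of the cuticular wax. The 2 two-colour arrays carried the same comparison with the dyes exchanged: cer6-2 was in Cy3 and Ler-0 in Cy5 on array 1, and cer6-2 was in Cy5 and Ler-0 in Cy3 on array 2. Both arrays were taken to hold the same RNA pools. There was thus 1 biological replicate, the SD given below is the spread between 2 technical measurements, and no difference between genotypes has a replicate check or a p-value.

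All values are log2 ratios of cer6-2 over Ler-0, read as Cy5 over Cy3 by the convention of the array's maker and turned by the stated dyes. That direction is likely but not stated, and with Cy3 as the numerator every higher value would be a lower one. The deposited table holds ratios alone, so no level per genotype, and no signal over background, can be given. Calls were made by size alone: a gene counted as higher or lower if its ratio reached 2-fold in that direction on each array. In whole shoots, fewer cells that express a gene and less of its RNA per cell cannot be told apart.

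F6'H1 had a ratio of -4.57 in array 1 and -2.73 in array 2. These are 23.8-fold and 6.62-fold lower in cer6-2. Both arrays placed the gene on the same side, well past the 2-fold threshold, but they differed in size. The mean was -3.65 ± 1.31 (SD, n = 2 technical measurements), a 12.6-fold lower ratio. Lower calls made up 0.725% of all genes (67 of 9236), higher calls 0.595% and both together 1.32%, and nothing is read from the membership of F6'H1 among them, because that ratio chose the gene.

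The position of F6'H1 at the low end depended on the array. It was the lowest of all 9236 genes in array 1, 1.21 below the next gene, but the 3rd lowest in array 2. The genes below it in array 2 were AT2G15220 at -3.17 and the cold-regulated gene COR15B (AT2G42530) at -3.15. By the mean of both arrays F6'H1 was the lowest of the 9236 genes, 0.39 below COR15B, and this gap is smaller than the SD of F6'H1 itself. The 13258 features without a matched gene were not ranked, and 2 of them had a lower mean than F6'H1. COR15B stood at -3.36 in array 1 and -3.15 in array 2, so it was the 1 gene beside F6'H1 at or below -2.73 in both arrays. F6'H1 and COR15B are thus not separated beyond the spread of the measurement.

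The arrays disagreed more on the size of the F6'H1 ratio than on any other called gene. The distance between the arrays was 1.85 for F6'H1, a 3.60-fold disagreement. The median distance was 0.25 over the 122 called genes and 0.37 over all 9236 genes. None of the 122 called genes had a larger distance than F6'H1, and 62 genes (0.671%) of all 9236 did. AT1G17180, also called lower, was nearly as far apart, with -2.89 in array 1 and -1.06 in array 2. A call needs 2-fold the same way in both arrays, so the rule itself tends to leave out genes with a large distance. With 1 array for each dye orientation, the dye and other differences between the arrays cannot be told apart.

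**Figure D1:**
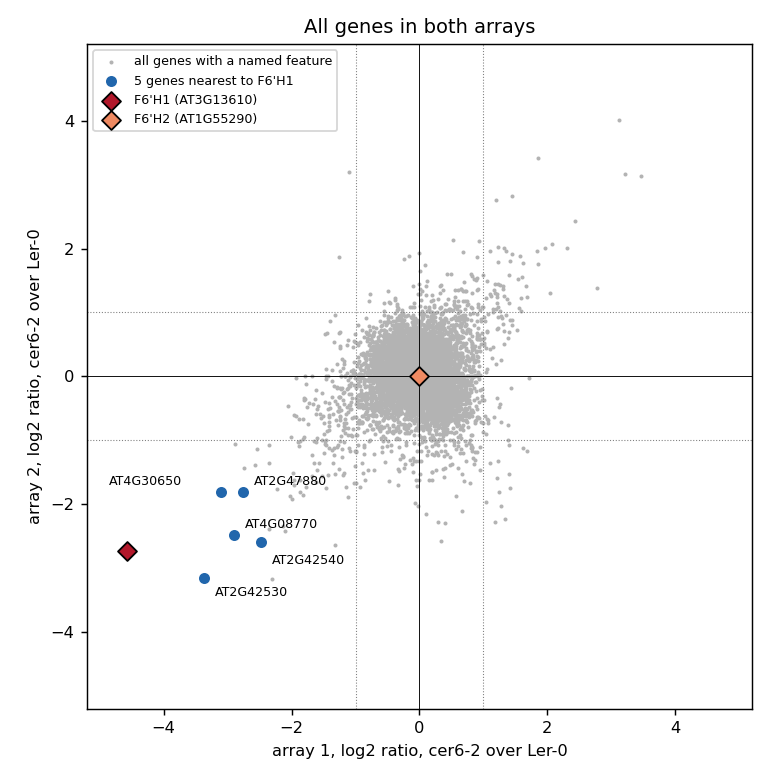
Log2 ratio of cer6-2 over Ler-0 in array 1 (x axis) and array 2 (y axis) for the 9236 genes with a named feature, each a grey point, with dotted lines at 2-fold. F6'H1 (red diamond) lies at -4.57 and -2.73, the 5 genes nearest to it are in blue, and F6'H2 (orange diamond) lies at the origin.

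The genes most like F6'H1 were found by the distance between pairs of ratios (array 1, array 2), a likeness that rests on 2 arrays of the same RNA pools. The nearest was COR15B, at a distance of 1.28. The class III peroxidase Prx37 (AT4G08770), with ratios of -2.90 and -2.48, followed at 1.69. AT4G30650 stood at -3.10 and -1.81, at a distance of 1.74. The others were AT2G47880 at a distance of 2.04 and COR15A (AT2G42540), the neighbour and paralog of COR15B, at 2.09. All 5 were called lower, against 0.725% of all genes. They were searched by nearness to the low ratios of F6'H1, so this follows largely from the search and is not read as a result. The gap between the arrays of F6'H1 itself, 1.85, was larger than the distances of the nearest 3.

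F6'H2, the paralog of F6'H1, was listed at exactly 0 in both arrays. Of all 9236 genes, 166 (1.80%) were listed at 0 in both arrays and a further 96 in 1 array. The sources used here do not state how an exact 0 arose, so this entry does not show that F6'H2 had the same level in cer6-2 and Ler-0. Whether F6'H1 and F6'H2 differ in their response therefore could not be assessed. Each of them was read by 1 feature, and the sequences of the features were not used here, so cross-hybridisation between the paralogs was not tested.

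No other measured coumarin gene reached 2-fold in both arrays. The list of the pathway held 15 genes, of which 7 had a named feature. The 1 call among the 7 was F6'H1, chosen for its ratio, and with calls at 1.32% of all genes, no call among the other 6 is near the share over all genes. The median of the 7 was -0.26, against 0 for all genes, and it was also -0.26 over the 5 genes other than F6'H1 and F6'H2. AT1G28680, entered in the list as the enzyme that closes the lactone ring (coumarin synthase, a name that the gene table does not give), stood at -0.39 in array 1 and -0.05 in array 2. Its mean of -0.22 ± 0.24 did not exceed the spread between the arrays.

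The beta-glucosidases that release scopoletin from scopolin went both ways. BGLU42 (AT5G36890) stood at -0.19 in array 1 and -0.61 in array 2. BGLU21 (AT1G66270) stood at -0.57 and -0.94, with a mean of -0.75 ± 0.26, below 0 in both arrays but short of 2-fold. BGLU22 (AT1G66280), the neighbour of BGLU21, had opposite signs, 0.06 and -0.58. PYK10 (AT3G09260), also known as BGLU23 and the main protein of the ER body, stood at 0.79 and 0.68, above 0 in both arrays with a mean of 0.73 ± 0.08. None of these 4 genes was called, and BGLU21, BGLU22 and PYK10 are close paralogs whose features can share signal. Over all genes, 43.5% had the same sign in both arrays.

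**Figure D2:**
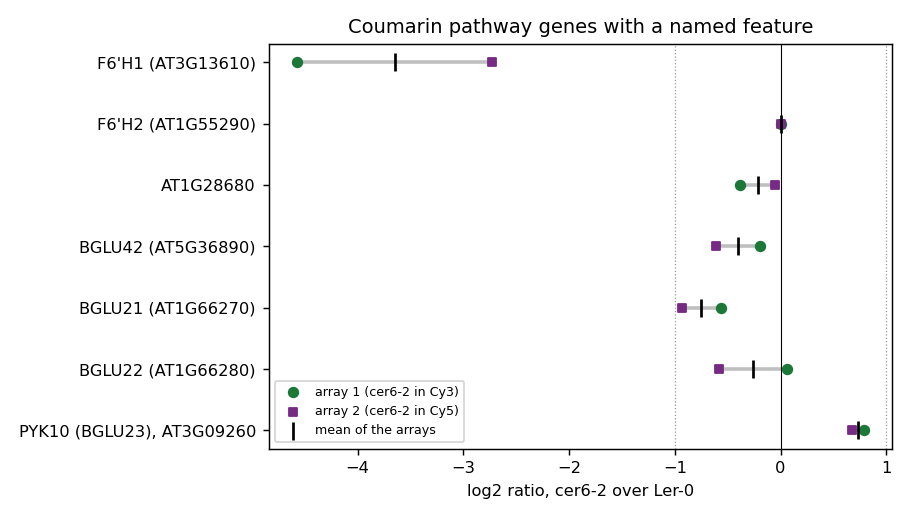
Log2 ratio of cer6-2 over Ler-0 (x axis) of the 7 coumarin pathway genes with a named feature, in array 1 (green circles) and array 2 (purple squares), with the mean as a black tick and dotted lines at 2-fold. F6'H1 lies at -3.65 on average, while the means of the others run from -0.75 to 0.73.

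F6'H1 is known for its high expression in roots, so root markers were set beside it. Of 6 root markers 5 had a named feature, and 3 of the 5 (BGLU21, BGLU22 and PYK10) also belong to the coumarin list. The root hair expansins EXPA7 and EXPA18 stood at 0.26 and 0.06 in array 1, and at -1.18 and -0.37 in array 2. None of the 5 was called, which is near the share of 1.32% over all genes. Their median was -0.26 and their means ran from -0.75 to 0.73. The same sign in both arrays was found for 2 of the 5, near the 43.5% of all genes. No signal levels are given for these markers, so the absence of root tissue cannot be checked, and a part of root tissue in the F6'H1 ratio was not tested. Of 7 leaf markers, 3 had a named feature: RCA at 0.08 ± 0.04, LHCB4.1 at 0.08 ± 0.07 and LHCB4.2 at 0.25 ± 0.66.

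Upstream of the hydroxylases, the phenylpropanoid pathway supplies feruloyl-CoA. Only 3 of 30 genes of its list had a named feature, and none was called. With calls at 1.32% of all genes, the lack of a call among 3 genes is not read as a result. HCT (AT5G48930), the hydroxycinnamoyltransferase on the way to the caffeoyl and feruloyl esters, stood at -0.02 in array 1 and -0.10 in array 2. CCoAMT (AT1G67980), of the caffeoyl-CoA O-methyltransferases that act on the precursor of feruloyl-CoA, stood at -0.46 and -0.44, with a mean of -0.45 ± 0.01. CCR2 (AT1G80820), a cinnamoyl-CoA reductase, of an enzyme class that uses feruloyl-CoA, stood at 0.13 and 0.89, with a mean of 0.51 ± 0.53. The median of the 3 was -0.06, against 0 for all genes. The lyases, ligases and hydroxylases at the head of the pathway had no named feature and were not analysed here.

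Iron deficiency is a known inducer of F6'H1 and S8H in Arabidopsis roots, so the genes of that response were listed too. Of 37 genes 5 had a named feature, all of them regulators, and none was called. This is near the share of 1.32% over all genes, so it says nothing about the iron response. The bHLH factor bHLH101 (AT5G04150), which rises under iron deficiency, stood at 0.04 in array 1 and 0.57 in array 2. The other 4 had opposite signs in the arrays, as did 4955 of all 9236 genes. Among the 4 were the bHLH factors PYE (AT3G47640) with a mean of -0.02 ± 0.23 and bHLH121 (AT3G19860) with 0.13 ± 0.50. ILR3 (AT5G54680), also a bHLH factor, stood at -0.20 in array 1 and 0.20 in array 2. AT1G18910, entered in the list as an E3 ligase that acts on such factors, stood at 0.08 ± 0.62. The median of the 5 was 0.08, against 0 for all genes, but the arrays gave it opposite signs, -0.20 in array 1 and 0.49 in array 2. The iron transporter, reductase and ferritin genes of the list had no named feature.

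Among the measured 2-oxoglutarate-dependent dioxygenases, F6'H1 had the lowest ratio in each array. It was chosen with its extreme ratio known, so nothing is read from this position. The list of that family held 86 genes, of which 41 had a named feature. F6'H1 was called lower and 2 genes (4.88% of the 41, against 0.595% of all genes) were called higher. The list was chosen with earlier results of these data known, so this share describes the list alone and is not read as a trait of the family. The 2 higher genes were the jasmonate-regulated gene JRG21 (AT3G55970), at 3.13 in array 1 and 4.02 in array 2, and its relative AT2G38240, at 1.86 and 3.42. Both belong to the oxygenases that hydroxylate jasmonic acid. Another gene of that group, AT5G05600, had the next highest mean, 1.20 ± 0.52, with 0.83 in array 1, short of 2-fold, and 1.57 in array 2. AT3G11180, the last measured gene of that group and named after its values were seen, was listed at 0 in both arrays.

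The other 38 measured genes of the family, AT5G05600 and F6'H2 among them, were not called. AT1G14120 stood at 0.65 in array 1, short of 2-fold, and 1.36 in array 2, and AT3G46500 at 0.58 and 0.89. Both genes were named after their values were seen. After F6'H1, the lowest means were those of AT1G52820 and AT5G43440. AT1G52820 stood at -1.79 in array 1 and was listed at 0 in array 2. AT5G43440 stood at -1.29 in array 1 and -0.18 in array 2. Of the 41 genes, 6 were listed at 0 in both arrays, F6'H2 among them. That is a larger share than the 166 (1.80%) of all 9236 genes, and its cause was not tested. The family median was 0, the same as the median of all genes, and it was 0.05 without the genes at 0 in both arrays. Opposite signs in the arrays were found for 15 of the 41, against 4955 of all 9236 genes.

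**Figure D3:**
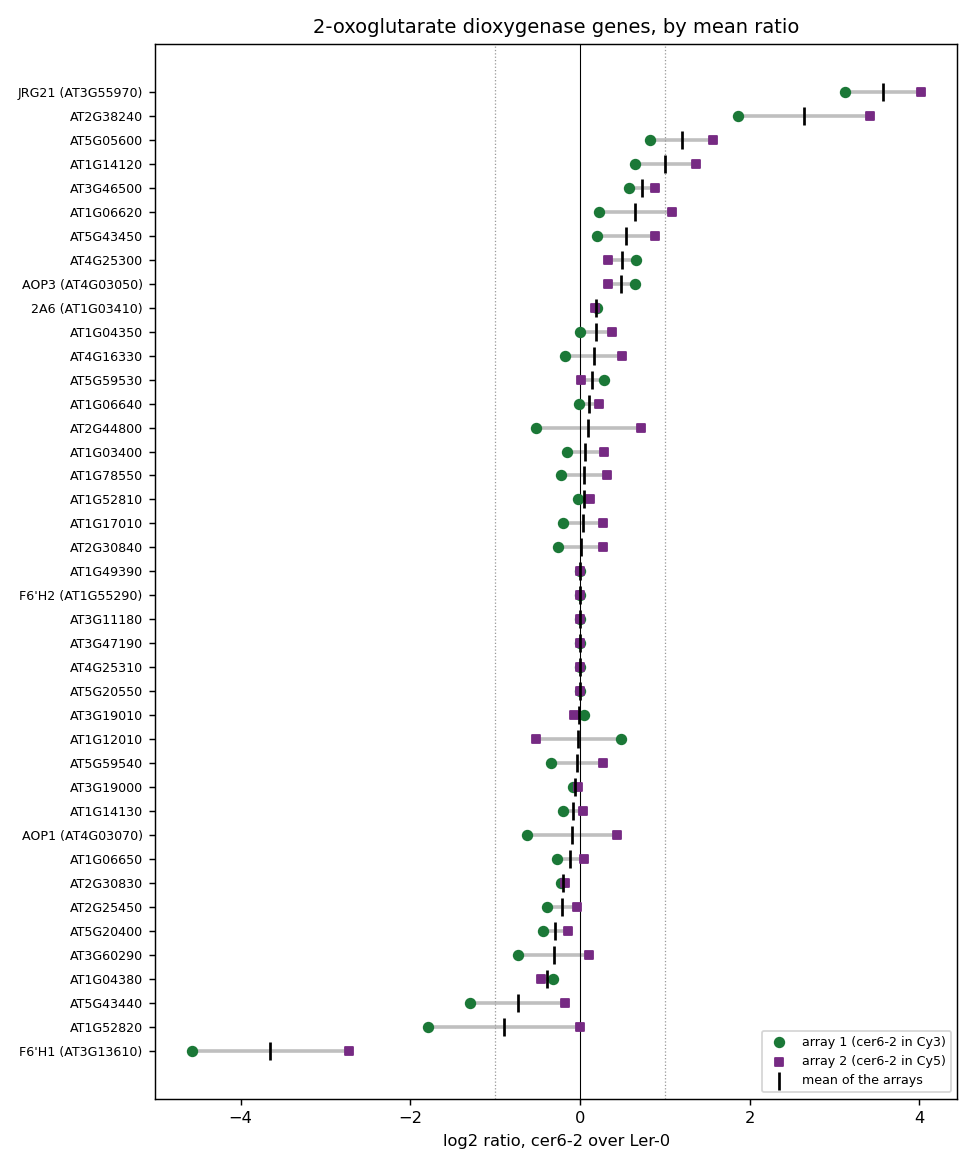
Log2 ratio of cer6-2 over Ler-0 (x axis) of the 41 dioxygenase genes with a named feature, ordered by their mean, in array 1 (green circles) and array 2 (purple squares), with the mean as a black tick and dotted lines at 2-fold. JRG21 has the highest mean, 3.57, and F6'H1 the lowest, -3.65.

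Values of the genes beside the hydroxylases on their chromosomes are given as a description. F6'H1 and S8H are on chromosome 3 and F6'H2 is on chromosome 1 in the gene table. For each of the 3, the nearest 3 genes with a named feature on each side were taken, 18 in all, and 0 of the 18 were called, which is near the share of 1.32% over all genes. Around F6'H1 the means ran from -0.70 ± 0.03 for AT3G13650, the next such gene after it, to 0.57 ± 0.37 for AT3G13580. AT3G13650 stood at -0.68 in array 1 and -0.72 in array 2, and AT3G13590, the last such gene before F6'H1, at 0.07 and -0.05. Another neighbour, AT3G13660, was listed at 0 in both arrays.

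The neighbours of the other hydroxylases had small means. Around F6'H2 the means of the 6 genes ran from -0.22 ± 0.23 for AT1G55390 to 0.39 ± 0.07 for AT1G55280. AT1G55240, also among them, had the largest disagreement, with 1.04 in array 1 and -0.90 in array 2. Around S8H the means ran from -0.37 ± 0.82 for SDRB (AT3G12800) to 0.41 ± 0.02 for AT3G12760.

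**Figure D4:**
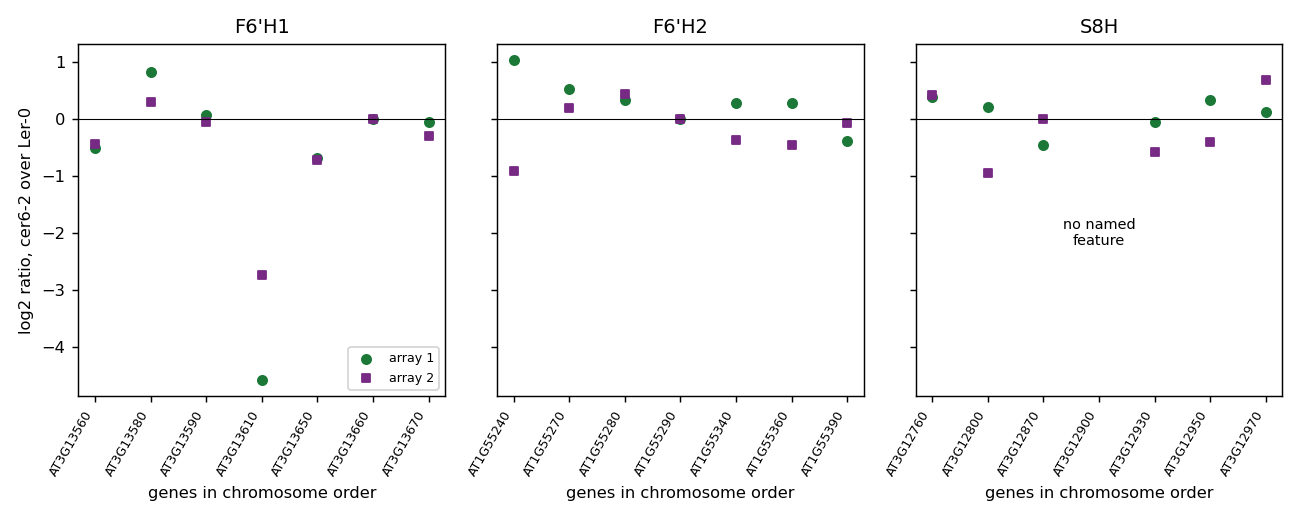
Log2 ratio of cer6-2 over Ler-0 (y axis) of F6'H1, F6'H2 and S8H (centre of each panel) and of the nearest 3 genes with a named feature on each side, in chromosome order (x axis), in array 1 (green circles) and array 2 (purple squares). F6'H1 lies at -4.57 and -2.73, its neighbours between -0.72 and 0.83, and S8H has no value.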

How the data were processed

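Per the labels' protocols, RNeasy columns were used for RNA, Agilent's direct labelling for the dyes, and Agilent Arabidopsis 2 arrays for hybridisation. The table that the authors deposited has 22575 features with a value for each array, taken as the log10 ratio of the channels, since the values stop at 2 in size, a 100-fold ratio, and have a median of 0. The log base, background correction, dye normalisation and filters are not given in the labels or the table. Values were converted to log2, and array 1 was multiplied by -1. Of the genes past 2-fold in each column as deposited, 122 had opposite signs and 15 the same sign. The columns were therefore taken as not turned before deposit.

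The platform annotation and, by gene identifier, the TAIR10.1 gene table gave the names of features. Of 9375 annotated features, 40 had several genes, 9317 matched 1 gene of the table and 18 did not. Several features of a gene were averaged (78 genes). Calls needed 2-fold in both arrays, and a list median needed 3 measured members. The genes, the lists and the rule for named genes were chosen with earlier results of these data known. The rule named the 3 hydroxylases, all measured coumarin genes, the called, highest 3 and lowest 3 genes of the other lists, the 5 genes nearest to F6'H1 and 3 flanking genes per side. AT2G15220 and AT1G17180 were named after their values were seen. Other centring, averaging, thresholds and readings of the columns were tried. Protein, promoter and feature sequences were not used here. The number of arrays limits the precision. Python 3.11.15, pandas 2.3.3, numpy 2.4.6 and matplotlib 3.10.9 were used.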

Additional observations from a re-analysis of the deposited data

How the results depend on the processing

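The F6'H1 ratio, -3.65, was 3.65 as Cy3 over Cy5 and 0.92 with the deposited columns taken as turned before deposit, when the arrays would have opposite signs (the cause is the reading itself). Read as log2 in place of log10, it was -1.10. With either array left out it ran from -4.57 to -2.73. Leaving out features over 2-fold apart between the arrays removed F6'H1 by construction, while it was called at 1.5-fold and at 3-fold. Centring each array on its named features gave F6'H2 -0.012 in place of the listed 0, and moved F6'H1 to -3.66. With 1 array left out, the medians ran from -0.58 to -0.19 for the coumarin list and from -0.10 to -0.02 for phenylpropanoid genes. They ran from -0.20 to 0.49 for iron genes and from -0.017 to 0.12 for the dioxygenase family. The last 2 medians thus fell on both sides of 0. Without F6'H1 and F6'H2 the coumarin median was -0.26 and the family median 0.01, and without genes at 0 in both arrays they were -0.33 and 0.05, settings chosen after the data had been seen. The number of called genes was 122, against 342 at 1.5-fold, 31 at 3-fold, 212 by the mean of both arrays, and 329 to 369 with 1 array left out. The cause was not tested for the differences between arrays. No paired analysis was possible because there is 1 pool per genotype. Signal over background, which would limit low transcripts, is not given in the values used here.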

Other observations

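S8H may lie among the 13258 features without a matched gene, which entered none of the gene ranks, lists or calls above. Of these, 2 had a lower mean ratio than F6'H1, both of them at least 2-fold lower in both arrays. Only 1 was as low as F6'H1 in each array, and 5 were at or below -2.73 in both arrays. In all, 92 of these features were at least 2-fold lower and 69 at least 2-fold higher in both arrays. An exact 0 in both arrays was found for 1064 (8.03%) of the features without a matched gene. Of the 13258, 13200 had no annotation, 40 had several genes and 18 had 1 gene outside the gene table.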
